A study of Mus musculus with 6 samples.

Results

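Cycling nuclei are those caught with RNA of the cell division machinery, whatever lineage they belong to. A nucleus counted as cycling when its raw unique molecular identifiers (UMIs, each one a captured RNA molecule) included at least 2 of 8 genes, Mki67, Top2a, Cenpf, Cenpe, Kif11, Knl1, Bub1b and Aspm, with Mki67 or Top2a among them. This rule found 98 nuclei of 21724, or 0.451%. The members were thus chosen by measured values, the UMIs of these 8 genes. KO libraries held 18 and 9 of them, against 17, 13 and 18 for WT, and 1 library that was kept apart held 23.

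The study compared adrenal glands of Tmem127 knockout (KO) and wild-type (WT) mice by single-nucleus RNA sequencing. Tmem127 encodes a transmembrane protein known as a tumour suppressor in phaeochromocytoma, a tumour of the adrenal medulla. The KO group holds 2 libraries and the WT group 3. All mice, KO and WT alike, were female, of strain C57BL/6 J and 10 to 11 months old, and each library came from 1 pair of whole frozen glands whose nuclei were sorted by DAPI, a DNA stain, before droplet capture. The sixth library has a title that calls it WT and a genotype field that calls it KO, so it entered no group and is called the unassigned library. The deleted stretch of Tmem127 and any Cre line are not given in the sources used here. Separate animals are not stated beyond the separate pairs of glands, so p-values measure the spread between these libraries.

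A cell that enters division first licenses its replication origins and copies its DNA in S phase, and then condenses, aligns and parts its chromosomes in G2 and mitosis. Mki67 coats mitotic chromosomes, and Top2a untangles the replicated DNA. In the adrenal cortex, steroid-producing cells are renewed from the capsule and the outer zona glomerulosa, while the chromaffin cells of the adult medulla divide seldom. Genes of the late cell cycle are commonly held under a promoter element called CHR with CCAAT boxes nearby, and genes of S phase under E2F sites.

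The gene Mki67 lies at chr7:135689784-135716361 and Top2a at chr11:98992943-99024189, both on the minus strand (GENCODE vM21, GRCm38). Promoters of the genes that choose or stand out among these nuclei are printed here because the genes share these elements unequally. Each stretch runs from 250 bases before to 50 bases after the annotated start, as RefSeq gives it on GRCm38.p6. Capitals mark matches on either strand. The letters searched were TTTGAA for the CHR. For the second element they were CCAAT. For E2F they were either TTTCCCGC or, as the other form, TTTGGCGC. Mki67 and Top2a are the required genes, Mcm6 is a subunit of the replicative helicase, and Neil3, a DNA glycosylase, had the highest fold outside the gene lists.
Mki67, chr7:135716330-135716629, strand -: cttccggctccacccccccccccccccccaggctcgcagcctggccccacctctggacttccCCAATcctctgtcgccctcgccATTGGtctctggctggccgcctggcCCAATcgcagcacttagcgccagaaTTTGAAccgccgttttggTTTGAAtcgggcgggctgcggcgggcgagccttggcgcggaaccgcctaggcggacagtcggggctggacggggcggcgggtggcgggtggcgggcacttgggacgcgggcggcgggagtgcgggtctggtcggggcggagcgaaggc
Top2a, chr11:99024140-99024439, strand -: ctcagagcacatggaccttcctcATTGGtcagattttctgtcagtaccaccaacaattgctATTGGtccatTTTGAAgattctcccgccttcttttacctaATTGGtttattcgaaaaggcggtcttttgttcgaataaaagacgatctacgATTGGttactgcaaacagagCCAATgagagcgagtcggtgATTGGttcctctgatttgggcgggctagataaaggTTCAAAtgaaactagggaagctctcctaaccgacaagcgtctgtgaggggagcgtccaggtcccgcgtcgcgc
Mcm6, chr1:128359656-128359955, strand -: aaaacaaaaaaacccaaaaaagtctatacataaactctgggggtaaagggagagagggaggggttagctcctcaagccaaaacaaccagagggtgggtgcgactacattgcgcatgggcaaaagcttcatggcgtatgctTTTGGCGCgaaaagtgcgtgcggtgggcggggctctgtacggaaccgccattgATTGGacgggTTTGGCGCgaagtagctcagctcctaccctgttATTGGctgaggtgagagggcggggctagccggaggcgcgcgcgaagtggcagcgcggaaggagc
Neil3, chr8:53639016-53639315, strand -: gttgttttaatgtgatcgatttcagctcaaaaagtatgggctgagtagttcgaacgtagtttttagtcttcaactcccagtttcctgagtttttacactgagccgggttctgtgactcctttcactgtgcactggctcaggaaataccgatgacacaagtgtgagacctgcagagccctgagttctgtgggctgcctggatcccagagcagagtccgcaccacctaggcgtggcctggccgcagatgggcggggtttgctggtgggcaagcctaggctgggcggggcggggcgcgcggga
The Mki67 stretch held 2 CHR and 3 CCAAT matches, the Top2a stretch 2 and 6, the Mcm6 stretch 2 CCAAT and 2 E2F matches, and the Neil3 stretch none. CHR was in 7 of the 8 rule genes' stretches (87.5%) and in 4893 of all 27025 stretches in the table (18.1%). Among the lists of cell cycle genes described below, CHR was in 49 of 83 G2/M stretches (59%) and in 10 of 59 S phase stretches (16.9%). E2F went the other way, with 19 of the 59 S phase stretches (32.2%), 7 of the 83 G2/M stretches (8.43%) and 1.63% of all stretches. A match is a run of letters and was not tested as a site.

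Total UMIs ranged from 4825169 to 43377724 per library and the median per nucleus from 1289 to 7675, so detection was compared at equal depth. Each nucleus with at least 1000 UMIs was thinned to 1000 at random, and shares were averaged over 100 draws. Nuclei with fewer were left out, 987 of 2886 in KO replicate 2 and 706 of 3393 in WT replicate 2. The other libraries lost from 61 to 122. KO replicate 1 and WT replicate 1 were processed with Cell Ranger 4.0.0 and the other libraries with 3.1.0, per the file headers, with different gene annotations, and this is the batch. Of the cell barcodes, 72 occurred in more than 1 library and 2 in 4 libraries. They hold 4 of the cycling nuclei, 3 of which carry those 2 barcodes and had 11.6% to 39% mitochondrial UMIs. Tmem127, the targeted gene, was at 45.2 and 45.2 CPM (UMIs scaled to 1000000 per set of nuclei) in KO libraries, against 37.2, 38.6 and 36.1 in WT libraries, and at 36.5 in the unassigned library. It was counted in 28 UMIs in cycling nuclei with a class, against 26.8 expected from other nuclei. Since the deleted part is not given, these UMIs check no label.

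The rule genes did not contribute alike. Top2a, the topoisomerase, had 339 UMIs in cycling nuclei, which was 83.1% of all its UMIs, and Mki67 had 189, or 78.8%. The other nuclei thus held few molecules of either. Bub1b, a kinase of the spindle checkpoint, had 72 UMIs in cycling nuclei and 423 outside them, so that 14.5% of its UMIs were inside. Cenpe, a kinetochore motor, had 89 and 220, or 28.8%. These are values that chose the nuclei and are given as a description.

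The members were mostly modest carriers. Of the 98 nuclei, 32 had exactly 2 of the rule genes, 66 had at least 3, and 10 had all 8, of which 6 were in the unassigned library. Just outside the rule lay 105 nuclei with Mki67 or Top2a as their only rule gene and 39 with at least 2 rule genes but neither of those. The S phase and G2/M genes, from lists that leave out the rule genes, summed to 1990 and 1250 CPM in the set of 105 and to 984 and 882 in the set of 39. In the 32 nuclei just inside, with 2 rule genes, they summed to 2925 and 2553. Cycling nuclei had a median of 5481.5 UMIs and the other nuclei 3677.5. In adipocyte-like nuclei, which had a median of 5731 UMIs, 0 of 441 met the rule, which allows a share of up to 0.68%, and 1 of 441 (0.227%) had any Mki67 or Top2a.

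No difference in the share of cycling nuclei was detectable between KO and WT libraries. Cycling nuclei were 0.543% and 0.312% of the nuclei in KO libraries, against 0.365%, 0.383% and 0.494% in WT libraries, and 0.600% in the unassigned library. The ranges of KO and WT overlapped, and the 95% exact binomial intervals, which cover counting error only, ran from 0.143% to 0.856% over the KO libraries and from 0.204% to 0.78% over the WT libraries. Thinned to 1000 UMIs, the share was 0.144% and 0.241% in KO libraries, against 0.0618%, 0.191% and 0.154% in WT libraries, and 0.313% in the unassigned library. The mean was 0.193% ± 0.0681 in KO libraries (SD, n = 2) and 0.136% ± 0.0666 in WT libraries (SD, n = 3), a difference of 0.0568 percentage points (exact two-sided permutation test, p = 0.5). With 2 libraries against 3 this test cannot go below 0.1. Within the 4.0.0 batch, KO replicate 1 at 0.144% was above WT replicate 1 at 0.0618%. Within the 3.1.0 batch, KO replicate 2 at 0.241% was above WT replicates 2 and 3 at 0.191% and 0.154%. Thinned to 2000 UMIs, the difference turned to -0.0149 percentage points (p = 0.8, exact permutation test). At that depth KO replicate 2, at 0.301%, was below WT replicates 2 and 3, at 0.442% and 0.318%, as it was before thinning. KO replicate 1, at 0.268%, stayed above WT replicate 1, at 0.137%.

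**Figure D1:**
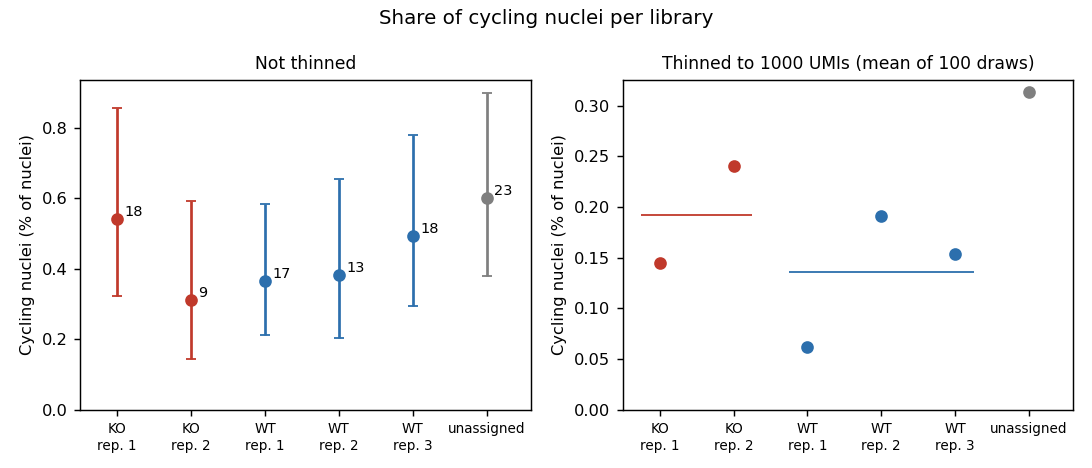
Share of cycling nuclei in each library as a percentage of its nuclei. Left, all nuclei before thinning, with 95% exact binomial intervals as bars and counts of cycling nuclei as numbers. Right, only nuclei with at least 1000 UMIs, each thinned to 1000, with group means as lines. KO and WT libraries overlap in both, and the unassigned library is the highest in both, at 0.600% and 0.313%.

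Cycling nuclei were found in 10 classes, and 87 of the 98 could be given one. Classes come from clusters of an embedding made without cell cycle genes, are called "like" a cell type from its markers, and keep a cluster number where under 3 markers passed (cluster 4) or where a marker of another type, and none of its own, was among the 10 leading genes (cluster 14, with 13 of 14 chromaffin markers passed and Rgs5, a pericyte marker, leading). The remaining 11 were 7 barcodes marked as doublets and 4 with high mitochondrial UMIs. Of the 87, 27 were zona glomerulosa-like (the outer cortex, where aldosterone is made), which was 31% with an interval from 21.6% to 41.9%. Cluster 4 held 15, capsule or fibroblast-like 11, zona fasciculata-like (the middle cortex, where corticosterone is made) 10, endothelial-like 8, macrophage-like 8 and T or NK-like 5. B or plasma-like, chromaffin-like and pericyte or smooth muscle-like held 1 each. For 72 of the 87, all 20 nearest neighbours were of 1 class.

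Marker RNA of the class was found in the cycling nuclei of each class with at least 5, mostly below the level of the other nuclei of the class. In the 27 zona glomerulosa-like cycling nuclei, Agtr1b, an angiotensin receptor, was at 596 CPM, against 807 in other nuclei of the class and 15.3 in other classes. The markers Cyp11b2 and Hsd3b6 went the other way, at 51 against 28.7 and 43.1 against 37.8, found in 4 and 3 of the 27. All 12 markers of that list summed to 5839 in them, against 6345 in other nuclei of the class. The T or NK list was above as well, at 7602 CPM against 7035 in other nuclei of its class. Pdgfra, a receptor of fibroblasts, was in all 11 capsule or fibroblast-like cycling nuclei, at 745 CPM against 584 in other nuclei of the class. The collagen gene Col1a2 was at 279.2 against 251.5. Col1a1 went the other way, at 13.3 against 47.7 with 1 UMI, and the whole list was at 3138 against 3543. Flt1, an endothelial receptor, was at 1996 against 3279, and Mrc1, a macrophage receptor, at 1092 against 906, while the whole macrophage list was at 4331 against 5357. In the 10 zona fasciculata-like cycling nuclei the list was at 11550 against 18710, and Mc2r, the ACTH receptor, at 184 against 397 in other nuclei of the class and 226 in other classes. The single chromaffin-like nucleus had 4891 CPM of its list against 12800. Some defining markers were at 0, namely Cd163 in the 8 macrophage-like nuclei, Dbh in the chromaffin-like one, and all of Cd79a, Cd79b and Ms4a1 in the single B or plasma-like one. Cluster 4, led by Cthrc1, Psat1, Oca2 and Srd5a1, passed only 2 zona fasciculata markers. Its 15 cycling nuclei had 615 CPM of Cyp11b1, the final enzyme of corticosterone synthesis, against 1125 in its other nuclei.

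Within a class, cycling nuclei gathered in particular clusters. Of the 27 zona glomerulosa-like ones, 20 were in cluster 3, led by Cyp11b2, the aldosterone synthase, where they were 1.01% of 1971 nuclei. The other 7 were in cluster 2, led by Adgrv1, where they were 0.345% of 2030. Cluster 3 passed 9 of the 12 zona glomerulosa markers, and cluster 2 passed 3, the fewest that allow a name. All 11 capsule or fibroblast-like ones were in cluster 6, led by Foxl2 and Fbn2, where they were 0.794% of 1386. The Rspo3 cluster of the same class, the cluster of the capsular signal that feeds the outer cortex, had 0 of 832, which allows up to 0.361%. X-zone or inner cortex-like nuclei had 0 of 1406, which allows up to 0.213%, and cluster 14 had 0 of 395, which allows up to 0.759%. Chromaffin-like nuclei, the class of the tumours that TMEM127 loss is known for in humans, had 1 of 1050 (0.0952%, interval 0.00241% to 0.529%).

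At matched depth no class differed from the other nuclei of the same libraries past the adjusted threshold. Macrophage-like nuclei were cycling in 0.698% and 3.67% of cases in KO libraries, against 0.0928%, 1.25% and 0% in WT libraries. Those shares are of 139 and 52 macrophage-like nuclei with at least 1000 UMIs in KO libraries, against 194, 63 and 188 in WT libraries. Their mean of 1.14% stood above 0.109% in other nuclei in 4 of 5 libraries (exact two-sided sign-flip test over 5 libraries, p = 0.188, adjusted 0.295). The difference of 1.03 percentage points was 0.391 without KO replicate 2. Zona fasciculata-like nuclei were lower than others in 5 of 5 libraries, at a mean of 0.0312% against 0.159% (exact sign-flip test, adjusted p over 11 classes 0.138, from the smallest p that 5 libraries allow). Chromaffin-like nuclei were also lower in 5 of 5, on 1 cycling nucleus. X-zone or inner cortex-like, adipocyte-like and cluster 14 nuclei held none. A count of 0 there allows 0.213%, 0.68% and 0.759%, over all nuclei of the 6 libraries before thinning. These limits lie above the matched-depth means of 0.150%, 0.142% and 0.142% in other nuclei, so no difference was detectable at this depth. Before thinning the differences were -0.413, -0.392 and -0.391 percentage points (exact sign-flip test, adjusted p = 0.172 for each). Of these, the X-zone or inner cortex-like difference was larger than its limit of 0.213%. Before thinning the zona fasciculata-like difference turned to 0.0631 percentage points higher. That class had 0.388% cycling before thinning and 0.0271% after, while zona glomerulosa-like nuclei had 0.675% and 0.222%.

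**Figure D2:**
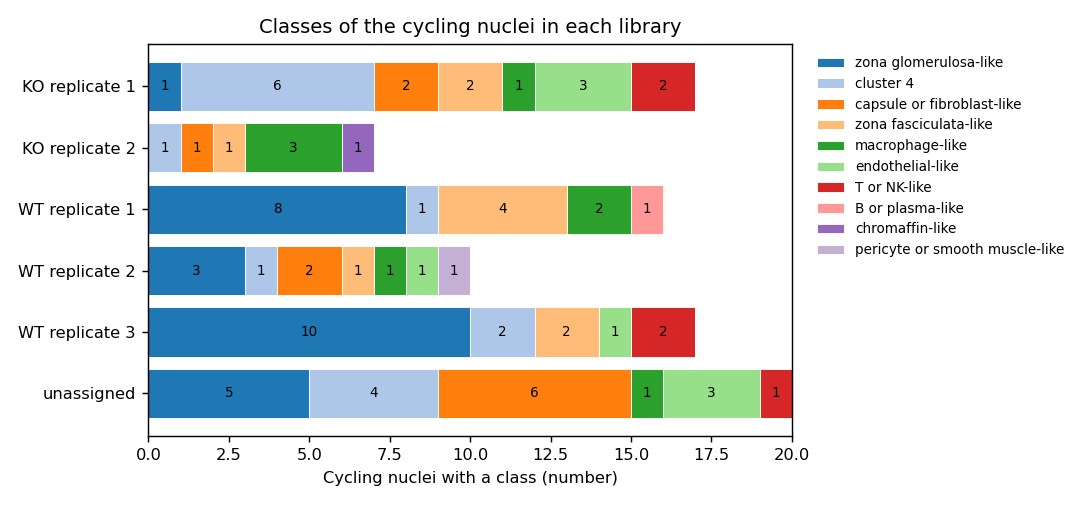
Number of cycling nuclei of each class in each library, for the 87 with a class. Zona glomerulosa-like nuclei (dark blue) number 1 and 0 for KO, against 8, 3 and 10 for WT.

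The classes of the cycling nuclei were distributed unequally between KO and WT libraries, in comparisons added after the values were seen. Zona glomerulosa-like nuclei made up 5.88% and 0% of the cycling nuclei with a class in KO libraries (1 of 17 and 0 of 7), against 50%, 30% and 58.8% in WT libraries (8 of 16, 3 of 10 and 10 of 17), and 25% in the unassigned library. The groups did not overlap, and the mean difference was -43.3 percentage points (exact permutation test, p = 0.1, the smallest the design allows). As a share of the class at matched depth, cycling nuclei were 0.0273% and 0% of zona glomerulosa-like nuclei in KO libraries, against 0.173%, 0.129% and 0.715% in WT libraries, and 0.272% in the unassigned library. Both KO values lay below every WT value, in the 4.0.0 batch and in the 3.1.0 batch, with a difference of -0.325 percentage points (exact permutation test, p = 0.3, adjusted over 11 classes 1). Without WT replicate 3 the difference was -0.137. The 0 of KO replicate 2 came from 411 nuclei with at least 1000 UMIs, which allows up to 0.73%. The class numbered 660 and 506 nuclei in KO libraries, against 956, 635 and 594 in WT libraries.

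Cluster 4 went the other way as a share of the cycling nuclei. It made up 35.3% and 14.3% of them in KO libraries (6 of 17 and 1 of 7), against 6.25%, 10% and 11.8% in WT libraries (1 of 16, 1 of 10 and 2 of 17), and 20% in the unassigned library (difference 15.5 percentage points, exact permutation test, p = 0.1). The 1 of KO replicate 2 had 538 UMIs in all, the fewest of any cycling nucleus, with 1 S phase and 0 G2/M UMIs. Within cluster 4 at matched depth the groups overlapped, with 0.347% and 0% cycling in KO libraries, against 0.03%, 0.359% and 0.15% in WT libraries. The other classes with at least 5 cycling nuclei overlapped between KO and WT libraries on both measures, except that T or NK-like nuclei, with 10 of at least 1000 UMIs in KO replicate 2, were compared on the first only. In the macrophage-like class, 3 of the 4 cycling nuclei of KO libraries were in KO replicate 2.

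**Figure D3:**
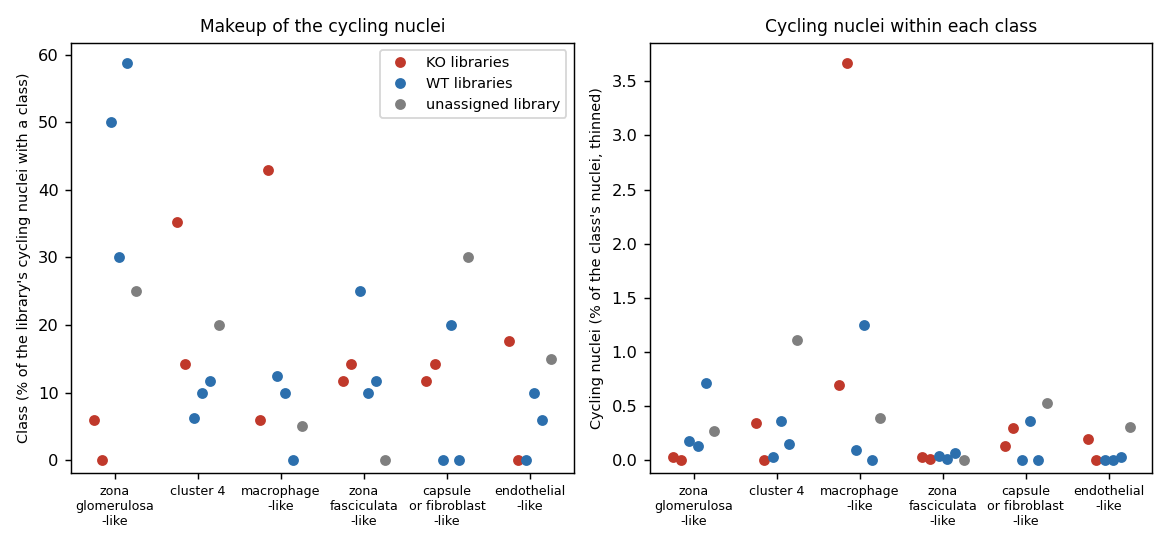
Left, each class as a percentage of its library's cycling nuclei with a class; right, cycling nuclei as a percentage of the nuclei of the class after thinning to 1000 UMIs. Each point is 1 library, KO left of WT left of unassigned within a class. The KO points of the zona glomerulosa-like class lie below all WT points in both panels.

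Fixed lists of cell cycle genes were then read in the 87 cycling nuclei with a class, against the UMIs expected from other nuclei of the same library and class. These folds follow from the contrast that chose the nuclei, so they are described and not tested. Of 15190 genes with at least 100 UMIs, 10.4% were at least 2-fold higher and 17.2% at least 2-fold lower, and the median log2 fold was -0.05. Among the 15190, 1533 had no UMI in these cycling nuclei, so a lower fold cannot be told apart from low detection there. No list of the replication or mitosis machinery held a gene at least 2-fold lower.

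The replication lists were high almost throughout. All 19 measured genes of origin licensing and the MCM helicase were at least 2-fold higher, with 691 UMIs in all and a summed fold of 7.83. Clspn, which relays fork stress to the checkpoint kinase, had 100 UMIs against 0.699 expected, and Cdc6, which loads the helicase, had 35 against 0.445. Mcm6, whose promoter is printed above, had 83 against 11.7, a fold of 7.07, with 8 and 0 UMIs in KO libraries and 36, 0 and 21 in WT libraries. Mcm6 RNA was in 36.8% of cycling nuclei and in 6.01% of other nuclei. All 25 measured genes of the polymerases, clamp and chromatin assembly were higher, from Rfc2 at 2.29-fold to Uhrf1, which keeps DNA methylation through replication, at 90.6-fold. Pola1, a polymerase subunit, had the most UMIs of that list, at 577, and a fold of 9.83. All 5 measured genes of nucleotide synthesis were higher, and Rrm2, the S phase subunit of ribonucleotide reductase, had 33 UMIs against 0.157. Of the S phase regulators, the repressor E2f7 had 122 UMIs against 0.444.

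Repair genes were high in these nuclei too. Of 16 measured genes of homologous recombination and fork repair, 15 were at least 2-fold higher, with a median log2 fold of 5.42. Brca1 had 123 UMIs against 2.27. The exception was Fancm, at 1.74-fold.

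Mitosis lists ranged from 5.85-fold for condensin and chromosome structure, where 9 of 9 measured genes were higher, to 68.1-fold for cytokinesis, where 6 of 6 were. Diaph3, an actin nucleator, had 468 UMIs against 3.92, and 37 and 4 of them were in KO libraries, against 93, 20 and 106 in WT libraries and 208 in the unassigned library. All 15 kinetochore genes and all 17 spindle genes measured were higher. Cenpp, of the inner kinetochore, had 648 UMIs against 14.3 and Kif15, a spindle motor, had 194 against 0.994. Cdk1, the mitotic kinase, had 43 UMIs against 0.204, in 28.7% of the cycling nuclei and 0.162% of the others. Of the anaphase-promoting complex list 8 of 10 were higher, with Pttg1 (securin) at 1.04-fold and Fzr1 at 1.89-fold. Ezh2, a histone methyltransferase, had 473 UMIs against 31.1.

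Genes known for stopping or starting the cycle were mixed. Of 16 CDK inhibitors and quiescence genes, 6 were at least 2-fold higher. These were the pocket proteins Rbl1 (9.1-fold) and Rb1 (2.41-fold), the inhibitors Cdkn2c (7.55-fold), Cdkn2a (7.41-fold, 17 UMIs against 2.29) and Cdkn1a (5.94-fold, 16 UMIs against 2.7), and Ccng2 (2.37-fold). Of the 8 G1 genes, E2f3 (4.15-fold) and Cdk2 (3.96-fold) were higher. The D-type cyclins that carry cells out of G1 were not. Ccnd1 was at 1.11-fold (24 UMIs against 21.6), Ccnd2 at 0.504-fold (109 against 216) and Ccnd3 at 0.564-fold (119 against 211). Overlapping genes, and the near-identical Kifc1 and Kifc5b, may share reads.

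**Figure D4:**
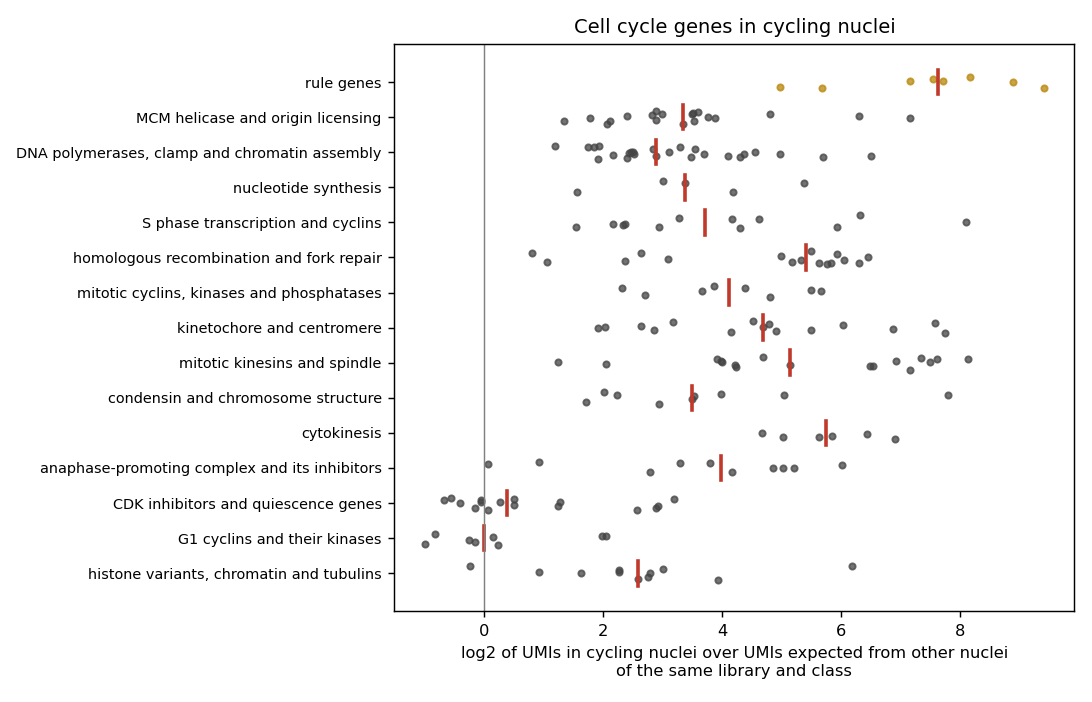
Each dot is a gene with at least 100 UMIs and a UMI in cycling nuclei, placed at the log2 of its UMIs in the 87 cycling nuclei with a class over the UMIs expected from other nuclei of the same library and class; red bars are list medians and the top row holds the genes of the rule. Replication, repair and mitosis lists lie to the right of 0, and the CDK inhibitor and G1 lists straddle it.

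Outside the lists, the gene with the highest fold was Neil3, with 204 UMIs against 0.38 expected, or 536-fold, found in 14 and 1 UMIs in KO libraries, 34, 4 and 56 in WT libraries and 95 in the unassigned library. BC030867 followed at 230-fold with 25 UMIs. Pclaf, a partner of the replication clamp, was at 168-fold and Lockd, a noncoding RNA next to Cdkn1b, at 97.9-fold. Cenpm, Knstrn, Tcf19, Cenph, Pkmyt1, Ccnf, Nsl1, Stil, Fignl1, Wdr62 and Dna2 were also among the 20 highest, from 82.7-fold for Cenpm to 17.5-fold for Dna2. The 10 lowest included Csmd1, with 15 UMIs against 378, of which 282 were expected in the unassigned library. Set against other nuclei of the same cluster in place of the class, a comparison added after the values were seen, Csmd1 was at 0.0478-fold and Mecom at 0.695-fold, against 0.04-fold by class. Neil3 was at 444-fold by cluster.

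**Figure D5:**
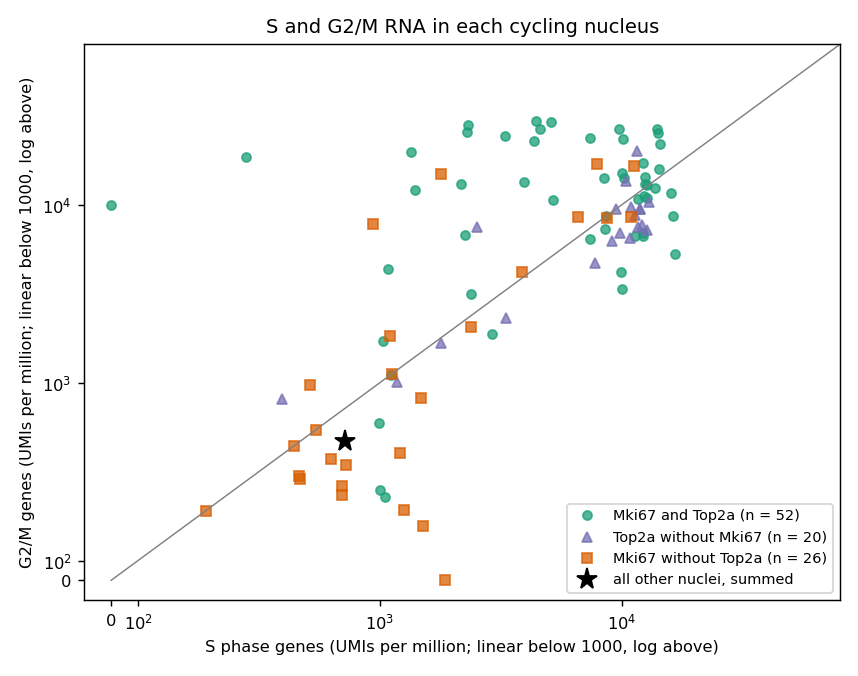
S phase genes (x) and G2/M genes (y) in each of the 98 cycling nuclei, in CPM of the nucleus, with the grey line where they are equal and the star at the summed level of all other nuclei. Nuclei with Mki67 but no Top2a (squares) crowd near the star, and those with both (circles) reach the highest G2/M levels.

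By phase, the cycling nuclei spread over S and G2/M. S phase genes summed to 6940 and G2/M genes to 9071 CPM in cycling nuclei, against 872 and 705 in all other nuclei. S phase UMIs exceeded G2/M UMIs in 47 nuclei, G2/M UMIs exceeded S phase UMIs in 44, and 7 were tied. In other nuclei with one above the other S was the higher more often in most classes, so a call of S alone shows no cycling. In cycling nuclei without a tie, the S share was 64.7% and 55.6% in KO libraries, against 66.7%, 36.4% and 62.5% in WT libraries. It was 30.4% in the unassigned library. The groups overlapped, with means of 60.1% ± 6.47 in KO libraries (SD, n = 2) and 55.2% ± 16.4 in WT libraries (SD, n = 3) (exact permutation test, p = 0.9).

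The rule genes marked different states. The 52 nuclei with both Mki67 and Top2a had 8682 S phase and 12950 G2/M CPM. The 20 with Top2a but no Mki67 had 6400 and 5000. The 26 with Mki67 but no Top2a had 1796 and 1782, and their second gene was most often Cenpf, found in 15 of them with 35 UMIs, while Knl1 had 3 UMIs. Against other nuclei of their library and class, S phase genes were at 1.93-fold (exact Poisson interval 1.69 to 2.19) and G2/M genes at 2.37-fold in the Mki67-only nuclei with a class, against 9.81-fold and 18.1-fold in those with both.

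For 21 of the 98 nuclei the phase genes went against the name cycling. Their S phase and G2/M levels both lay under 2 times those of all other nuclei, a limit chosen after the values were seen, and summed to 992 and 741 CPM, while the remaining 77 summed to 9076 and 12063. The 21 comprised 15 with Mki67 alone, 2 with Top2a alone and 4 with both, and 6 of them were among the 10 zona fasciculata-like nuclei. They numbered 7 and 1 in KO libraries, 7, 2 and 2 in WT libraries and 2 in the unassigned library, and their median depth was 6236 UMIs against 4824 in the other cycling nuclei. Without them the share was 0.332% and 0.277% in KO libraries, against 0.215%, 0.324% and 0.439% in WT libraries. Zona glomerulosa-like nuclei then numbered 1 and 0 in KO libraries (of 10 and 6 with a class), against 5, 3 and 10 in WT libraries (of 9, 9 and 16). Cluster 4 nuclei then numbered 3 and 1 in KO libraries, against 1, 1 and 2 in WT libraries.

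Classes differed in the height of their phase genes. The 27 zona glomerulosa-like nuclei had S phase genes at 10.3-fold and G2/M genes at 13.3-fold over expectation, and repair genes at 18.9-fold. Cluster 4 was close, at 9.68-fold and 15.9-fold. The 8 endothelial-like nuclei had 4.38-fold and 21.4-fold, and the 11 capsule or fibroblast-like 4.63-fold and 17.4-fold, so summed G2/M folds were the higher there. Single nuclei of the unassigned library held 476 and 300 of the 987 G2/M UMIs of the capsule or fibroblast-like ones. In the endothelial-like ones, nuclei of that library held 126, 113 and 73 of the 375. By nucleus, G2/M was the higher in 5 of the 8 endothelial-like and 5 of the 11 capsule or fibroblast-like, and S in 2 and 4. The 10 zona fasciculata-like nuclei were the only class of at least 5 in which S phase genes, at 6.29-fold (interval 5.77 to 6.84), stood above G2/M genes, at 5.42-fold (4.89 to 5.99), and S was the higher in 9 of 10, with 1 tied. Of these 10, 6 were among the 21 nuclei low in phase genes described above, and S was the higher in each of the 6. Single nuclei of WT replicate 1 held 208 and 174 of the 542 S phase UMIs of the 10. In other zona fasciculata-like nuclei S was the higher in 63.2% of those with one above the other. These intervals cover counting error only and the nuclei come from few libraries.

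Between KO and WT libraries, 7 of the 14 lists other than the rule genes had both KO folds below every WT fold, and none had both above. Both KO folds lay below every WT fold for 14.1% of 383 single genes with at least 5 expected UMIs in each library, and above for 10.4%. These folds are over other nuclei of the same library and class. Cytokinesis genes were at 23.1-fold and 28.4-fold in KO libraries, against 44.9-fold, 48-fold and 80.7-fold in WT libraries, and 137-fold in the unassigned library (exact permutation test on log2 folds, p = 0.1). Origin licensing and MCM genes were at 5.48-fold and 6.05-fold, against 7.26-fold, 8.72-fold and 9.56-fold (p = 0.1, exact permutation test). CDK inhibitors and quiescence genes were at 1.07-fold and 1.12-fold, against 1.53-fold, 1.79-fold and 2.25-fold (p = 0.1, exact permutation test). In the edgeR comparison of the summed cycling nuclei themselves, described next, 4 of 5 tested cytokinesis genes were above 0 and the list's median log2 fold was 0.31, the opposite direction. There the origin licensing and MCM list had a median of -0.23 over 3 genes and the CDK inhibitor list of -0.01 over 2, against -0.04 over all 2995 genes. The edgeR sums, unlike the folds, include cycling nuclei without a class. In KO replicate 2, 1 of these held 13254 of the 29255 UMIs of the cycling nuclei. None of these 14 tests, all added after the values were seen, could reach 0.05, and the lists share nuclei. Zona glomerulosa-like nuclei were 1 of the 24 cycling nuclei with a class in KO libraries, and their part in the difference was not tested.

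Gene by gene, no difference between KO and WT passed in the summed cycling nuclei. Of 2995 genes tested with edgeR's quasi-likelihood test, 0 (0%) had a Benjamini-Hochberg adjusted p under 0.05, and 173 had an unadjusted p under 0.05. DESeq2 called 1, Fam155a. Leaving out KO replicate 1, which leaves the 9 nuclei of KO replicate 2 as the only KO sample, gave 62 calls, and leaving out WT replicate 1 gave 4.

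The 10 genes with the smallest p-values are given as values. Fam155a, a subunit of a sodium leak channel, had 10 and 18 UMIs in KO libraries, against 2, 1 and 1 in WT libraries, and 68 in the unassigned library, a log2 fold of 4.97 ± 0.79 (SE; edgeR, adjusted p = 0.378). KO libraries stood above WT libraries without overlap. In nuclei that were not cycling it was at 22.6 CPM in zona glomerulosa-like nuclei and 1360 in other classes, where KO libraries had 1130 and 1180, against 1120, 1200 and 1640 in WT libraries. Without the shared barcodes its adjusted p was 0.0039 and it was the 1 call. Tmcc3 had 23 and 13 UMIs in KO libraries, against 8, 9 and 4 in WT libraries, with a log2 fold of 2.76, and was at 5.14 CPM in zona glomerulosa-like nuclei that were not cycling and 269 in other classes. Rps2, a ribosomal protein, had 8 and 62, against 3, 17 and 3, so that 1 library made most of its total.

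The other 7 of the 10 were lower in KO libraries and all had more RNA in zona glomerulosa-like than in other nuclei. Vsnl1, a calcium sensor that marks the zona glomerulosa, had 7 and 0 UMIs in KO libraries, against 103, 74 and 62 in WT libraries, a log2 fold of -3.53 ± 0.74 (SE; edgeR, adjusted p = 0.431). Among nuclei that were not cycling it was at 894 CPM in zona glomerulosa-like and 11 in other classes. Cdh6, a cadherin, had 5 and 0 UMIs, against 79, 46 and 81, and was at 651 and 24.1 CPM in those nuclei. Grin2a, a glutamate receptor subunit, had 0 and 0 UMIs, against 31, 16 and 32, and was at 241 and 12.2 CPM. Ppp2r2b, Astn2, Hs6st3 and Ism1 were the others, with log2 folds from -4.25 to -2.48. In WT replicate 2, 56 of the 74 Vsnl1 UMIs, 42 of the 46 Cdh6 UMIs and 41 of the 41 Ppp2r2b UMIs came from cycling nuclei outside the zona glomerulosa-like class. In that library 1 barcode, shared with other libraries and with 11.6% mitochondrial UMIs, held 57773 of the 97515 UMIs of the cycling nuclei. In KO replicate 2, 1 shared barcode with 28.2% mitochondrial UMIs held 13254 of the 29255 UMIs of the cycling nuclei. Without the shared barcodes these 3 genes had log2 folds of -3.21, -3.28 and -3.88. In zona glomerulosa-like nuclei that were not cycling, 5 of the 7 genes had both KO values below every WT value, as did 11.4% of the 10283 genes with at least 100 UMIs there. Vsnl1 was at 464 and 631 CPM in KO libraries, against 1070, 944 and 1020 in WT libraries, and Ism1 at 577 and 593, against 433, 533 and 686. The part of the class makeup in these gene values was not tested.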

How the data were processed

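Nuclei of 6 libraries of mouse adrenal glands were read from the deposited UMI counts per gene and barcode, raw counts made with Cell Ranger 4.0.0 (2 libraries) and 3.1.0 (4 libraries), per the file headers. The submitters' processing notes name Cell Ranger, Seurat and mm10. The handling of intronic reads is not stated. Analyses used the 30406 genes common to all files, Python 3.11.15, scanpy 1.11.5, edgeR 4.0.16 and DESeq2 1.42.0.

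Barcodes with under 300 genes or at least 5% mitochondrial UMIs (48) and 641 marked as doublets got no class but stayed in the shares. The remaining 21035 nuclei were clustered without cell cycle genes (2000 variable genes, 30 components, Harmony over libraries, Leiden resolution 0.8, 25 clusters), and a cycling nucleus took the class of most of its 20 neighbours. Class names need at least 3 markers and no more leading genes of another type than of their own.

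Shares were compared with exact two-sided permutation tests over libraries. Folds divide the UMIs of cycling nuclei by those expected from other nuclei of the same library and class. KO against WT was tested on counts summed per library with TMM, filterByExpr and the Cell Ranger version as a term. The scripts were tested on simulated data. There the KO against WT test recovered 2 of 47 tested genes changed 2-fold and 9 of 45 changed 4-fold. It recovered 36 of 45 changed 8-fold and 35 of 41 changed 16-fold, so small changes would mostly be missed. Named genes were the lists, the 20 highest and 10 lowest folds outside them (at least 20 UMIs in 5 libraries, or 50 expected UMIs), the 10 smallest KO against WT p-values, and class markers. Members and lists were chosen with earlier results of these data known. Promoters came from RefSeq (GRCm38.p6). A count of 0 allows up to 3 counts of the total, and intervals are 95%. Some genes under the naming rule are not reported here.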

Additional observations from a re-analysis of the deposited data

Results flagged for a closer look

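Among the cycling nuclei, 2 classes moved in opposite directions between KO and WT libraries. The zona glomerulosa-like share lay below the lowest WT value in each KO library, with a mean difference of -43.3 percentage points, and the cluster 4 share lay above the highest, with a mean difference of 15.5 percentage points. The cluster 4 share of KO replicate 2 was 1 nucleus with 538 UMIs. The capsule or fibroblast-like, zona fasciculata-like, endothelial-like, macrophage-like and T or NK-like shares, compared in the same way, overlapped between KO and WT libraries. Shares of 1 whole are not independent. These classes were picked because the KO and WT values did not overlap, so a test of the difference between them would restate that choice and is not given.

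The unassigned library, which entered no comparison, had a share of cycling nuclei above every WT library, at 0.313% thinned to 1000 UMIs and 0.600% not thinned. It held 6 of the 10 nuclei with all 8 rule genes and the highest fold for cytokinesis genes, 137. Its genotype labels conflict, so these values belong to neither group.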

How the results depend on the processing

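Alternatives changed 1 choice at a time, except that doublets and barcodes failing the filters were removed together and that keeping doublets also dropped the class weights. The cycling share, KO minus WT, ranged from 0.00864 to 0.105 percentage points without 1 library in turn, never passed the test, and turned to -0.0149 when thinned to 2000 UMIs. Leaving out barcodes shared between libraries, added after the data were seen, gave 0.0303.

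For classes against other nuclei, differences in percentage points that turned direction were these. With no thinning, capsule or fibroblast-like came to -0.139, pericyte or smooth muscle-like to -0.152 and zona fasciculata-like to 0.0631. Capsule or fibroblast-like came to -0.0323 thinned to 500 UMIs, -0.0105 with 1 seeded draw and -0.0277 with at least 3 rule genes. Cluster 4 came to -0.044 with at least 3 rule genes and -0.00594 with Mki67 or Top2a alone, where pericyte or smooth muscle-like came to -0.0211. Without 1 library in turn, cluster 4 ranged from -0.000431 to 0.0988 (turned without KO replicate 1), capsule or fibroblast-like from -0.0266 to 0.0735 (KO replicate 2 or WT replicate 2), pericyte or smooth muscle-like from -0.135 to 0.274 (WT replicate 2) and zona glomerulosa-like from -0.067 to 0.157 (WT replicate 3). Macrophage-like kept its direction, from 0.391 to 1.33.

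Within classes, KO minus WT turned for capsule or fibroblast-like to -0.371 thinned to 2000 UMIs, -0.038 with at least 3 rule genes and -0.00891 with the unassigned library as WT. Cluster 4, near 0 in the report, came to 1.16 with no thinning, 0.338 thinned to 2000, 0.341 thinned to 500, 0.348 with 1 seeded draw, 0.00383 with at least 3 rule genes, 0.184 with Mki67 or Top2a alone and 0.307 with the unassigned library as KO. Without 1 library in turn, cluster 4 ranged from -0.18 to 0.167 (turned without KO replicate 2 or WT replicate 2), endothelial-like from -0.00971 to 0.189 (KO replicate 1) and zona glomerulosa-like from -0.43 to -0.137.

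In the makeup, B or plasma-like and chromaffin-like came to 0% with at least 3 rule genes, chromaffin-like to 0% at Leiden resolution 1.2, and zona fasciculata-like to 2.21% among members after thinning. The S phase share, KO minus WT, came to -10.4 percentage points with repair genes added, -4.95 with the unassigned library as KO, and ranged from -4.45 to 10.7 without 1 library in turn (turned without WT replicate 2). The cause of these turns was not tested. Genes called between KO and WT numbered 21 of 14600 with no filter on low counts, 1 with DESeq2, 1 without shared barcodes, and 0 to 62 without 1 library in turn, where a lone KO sample is assumed to vary like the WT ones. In none of the other alternatives was a gene called. The list folds kept their direction except for the G1 list, whose log2 fold of -0.08 came to 0.19 against all other nuclei of the library with no class weights and to 0.16 with doublets also kept. Keeping doublets was added because doublets have no class to be removed from. No paired analysis was possible because the labels carry no replicate numbers; blocks by Cell Ranger version are in the edgeR test and the within-batch shares. With 2 against 3 libraries no share test can fall below 0.1, and 98 nuclei give 0 to 10 of a class per library, so differences of a few nuclei were not detectable at this depth.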
